A study of Mus musculus with 12 samples.

Results

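The 42 genes described here are the mouse genes whose symbols join Psma, Psmb, Psmc, Psmd or Psme to a digit, out of 21705 genes in the deposited table, and they hold nearly all subunits of the proteasome. Psmb8 and Psmb9 were left out of the list by rule because interferon brings them into the complex in place of other subunits, and they are given separately. One match, Psmc3ip, is a meiotic recombination factor whose symbol only resembles that of a subunit. It had at most 3 reads in any liver and no fold is given for it.

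The livers came from C57BL/6J female mice aged 10 to 12 weeks that had received, by tail vein, saline (6 mice) or LNA29 (6 mice). LNA29 is a mixture of LNA29a and LNA29bc, locked nucleic acid oligonucleotides that bind and block miR-29a and miR-29b/c, given at 20 mg/kg each. Tissue was taken on day 7 after an 18 h fast, and no allele or second agent is named. The control was saline and not another LNA, so that receiving an oligonucleotide and the block of miR-29 cannot be told apart. Each library was made from whole liver of 1 mouse, so that fewer cells of a type and less RNA per cell cannot be told apart. The libraries held between 7696097 and 19062448 reads on genes. The values are reads scaled to place the upper quartile of detected genes at about 1000, and 1 read was worth between 9.80 and 24.4 in that unit. That worth had a median of 18.4 in LNA29 and 12.9 in saline livers, whose libraries held medians of 9123465 and 12011976.5 reads. Levels of different genes are compared only per kilobase of transcript.

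The proteasome degrades proteins that carry chains of ubiquitin. Its barrel, the 20S core, is built of rings of alpha subunits (Psma) and beta subunits (Psmb), of which Psmb5, Psmb6 and Psmb7 cut peptide bonds. The 19S cap has a base of ATPases (Psmc) that unfold substrates, and a lid (most Psmd) in which Psmd14 removes ubiquitin. Alternative caps are PA28 (Psme1 with Psme2, or Psme3) and PA200 (Psme4). Interferon replaces the catalytic subunits by Psmb8, Psmb9 and Psmb10, and the transcription factor Nfe2l1 raises subunit genes together when proteasome activity falls.

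The sequences that LNA29 acts through are shown first, since their seed was used to search the subunit transcripts. The 3 mature family members (RefSeq, GRCm38.p6) share the seed, bases 2 to 8, printed in capitals.
mmu-miR-29a-3p: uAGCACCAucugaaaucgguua
mmu-miR-29b-3p: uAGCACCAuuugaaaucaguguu
mmu-miR-29c-3p: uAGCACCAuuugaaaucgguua
The complement of that seed, TGGTGCT, occurred in the longest annotated 3′ UTR (GENCODE M21, GRCm38) of 3 of the 42 genes (7.14%), against 15.5% of the 12125 tested genes with a 3′ UTR. These shares were not matched for 3′ UTR length, which ran from 44 bases (Psme2) to 3321 (Psmb11) in the 42 genes. The 42 also include Psmc3ip and the untested genes Psma8 and Psmb11. The sites and their flanks follow, with the complement in capitals.
Psma3: tttaaattctTGGTGCTattctcgtgt
Psmb7: aTGGTGCTgtgggtggtt
Psme4: ctggagttttTGGTGCTgagtaagagc
The Psma3 site lies at chr12:70994838-70994844 on the plus strand, in exon 11 of 11, and is followed by an A. The Psmb7 site lies at chr2:38588169-38588175 on the minus strand, in exon 8 of 8, and begins at base 2 of a 3′ UTR of 141 bases. The Psme4 site lies at chr11:30880245-30880251 on the plus strand, in exon 47 of 47. These coordinates are those of the reference, while the authors mapped to mm9. A match of letters does not show that miR-29 acts there. Shorter matches, coding sequence and other 3′ UTRs of a gene were not searched, so a gene without a match may still hold a site. The log2 differences of these 3 genes between LNA29 and saline livers were 0.02, 0.25 and -0.30, and none passed the test described next.

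No proteasome subunit gene differed between LNA29 and saline livers past the threshold. Of the 42 genes, 40 had a mean value of at least 10 and were tested with limma on log2(value + 1), with Benjamini-Hochberg adjustment over all 12486 such genes. None of the 40 had an adjusted p under 0.05, where 20 of the 12486 genes did (0.16%). The lowest adjusted p was 0.589, for Psmd9. At an unadjusted p under 0.05 limma called 1 of the 40, against 7.91% of all tested genes (1.95% higher and 5.97% lower in LNA29 livers). That 1 gene was higher, and no member was lower at that p. The tools edgeR and DESeq2 on recovered reads called none after adjustment and 1 and 4 before it. In no member did the 6 LNA29 values lie wholly outside the 6 saline values, as they did in 0.985% of all tested genes.

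Without Psmc3ip, the 39 tested genes differed by between -0.30 and 0.40 on the log2 scale. The 95% intervals of all 39 lay within 1 log2 unit of no difference, and those of 17 within 0.5. The outermost bounds were -0.96, for Psmb10, and 0.76, for Psmd9. With 6 livers in each group, the intervals reached between 0.24 and 0.75 to each side of the estimate (median 0.37). Differences within such intervals could have been missed.

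The 20S, base ATPase and other base genes were mostly slightly higher in LNA29 livers, in a table where most genes were slightly lower, as counted by sign and not by a test. Of the 40 tested genes, 29 were higher and 11 lower (72.5% higher), with a median log2 difference of 0.09. With a mean of at least 50, which leaves out Psmc3ip, 28 of 39 were higher and 11 lower, with a median of 0.09. Over all 12486 genes 38.6% were higher and the median was -0.09. With TMM scaling 35 of the 40 were higher, with a median of 0.16 beside -0.03 for all genes. With edgeR and with DESeq2 34 of the 40 were higher. Their medians were 0.14 and 0.15, beside -0.02 and -0.01 for all genes. Without saline replicate 49, 24 of the 40 were higher, with a median of 0.02, and without saline replicate 43 it was 25 of 40. The LNA29 libraries held fewer reads by their median, and the part of depth in these signs was not tested. Subunit genes varied together between livers, as shown further on, so the 40 signs are not 40 separate observations.

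**Figure D1:**
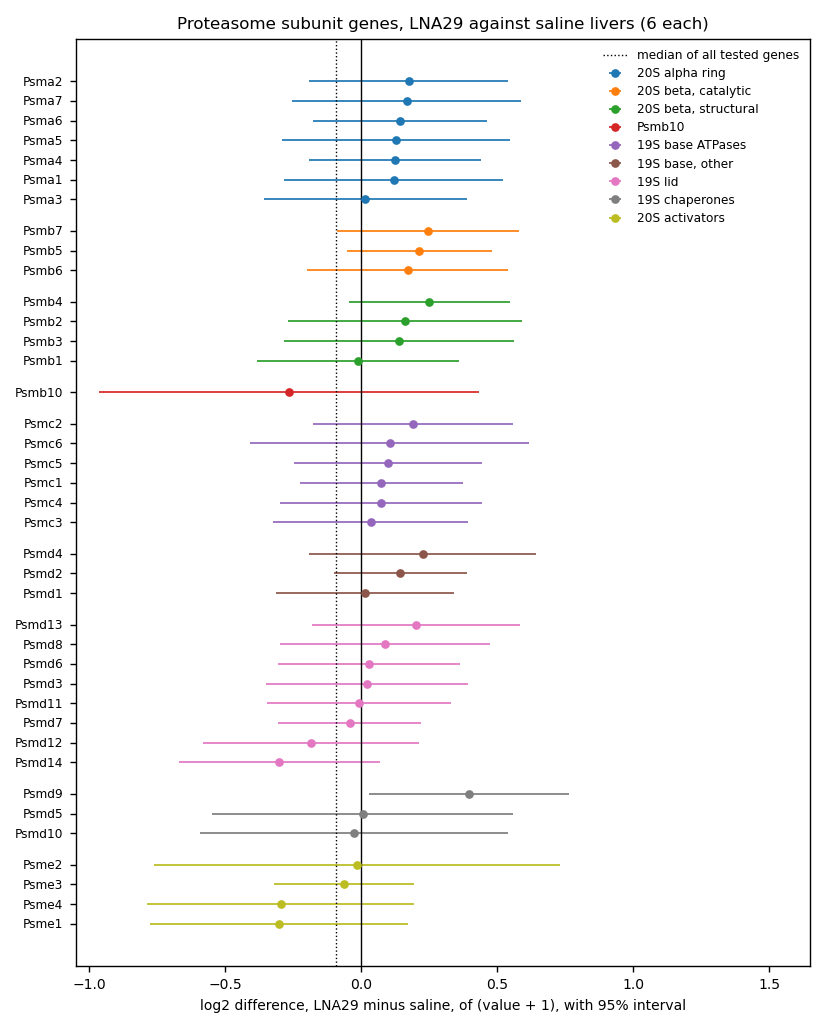
Log2 difference of (value + 1), LNA29 minus saline, for 39 proteasome genes (points, coloured by role) with 95% intervals from limma (n = 6 livers per group). The dotted line is the median of all tested genes, -0.09, and Psmd9 is the gene whose interval does not cross 0.

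The alpha ring genes, whose products form the gate of the barrel, were all higher in LNA29 livers, 7 of 7, with log2 differences between 0.02 (Psma3) and 0.17 (Psma2) and a median of 0.13. That median was 0.05 without saline replicate 49 and 0.06 without LNA29 replicate 54, with 6 of 7 higher in both cases. None had an unadjusted p under 0.05. Psma8, the alpha subunit of testis, had at most 1 read in a liver.

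The catalytic beta genes were higher in 3 of 3 cases, with a median of 0.21 (0.13 without saline replicate 49). Psmb5, the chymotrypsin-like subunit, had values between 2570 and 3752 (median 3168) in saline livers and between 3321 and 4178 (median 3505) in LNA29 livers. The groups overlapped through saline replicate 45 alone, which reached 3752, while the other 5 saline livers lay under every LNA29 liver. The log2 difference was 0.21 (standard error 0.13, limma adjusted p = 0.735), and the two-sided exact permutation test of this gene alone gave p = 0.0411, the lowest among the members, where 924 divisions of the livers allow 0.00216. Psmb7, the trypsin-like subunit and 1 of the 3 genes with a seed match, had values between 3480 and 6789 (median 5334) in saline and between 5300 and 7132 (median 6140) in LNA29 livers. Its groups overlapped widely, with a log2 difference of 0.25 (standard error 0.16, limma adjusted p = 0.771). Psmb6, the caspase-like subunit, showed 0.17 (limma adjusted p = 0.878), with saline values between 2380 and 5263. Without saline replicate 49 the differences of Psmb7 and Psmb6 were 0.13 and 0.04, and that of Psmb6 was also 0.04 with array weights.

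Among the structural beta genes, which close the ring without cutting, 3 of 4 were higher and the median was 0.15 (4 of 4 with TMM scaling, and a median of 0.01 without saline replicate 49). Psmb4 had values between 3210 and 5667 (median 4583) in saline livers and between 4548 and 6018 (median 5104) in LNA29 livers. Its lowest saline value was in replicate 49, and its log2 difference was 0.25 (standard error 0.14, limma adjusted p = 0.720), or 0.16 without that liver. Psmb11, the thymus subunit, was listed at the placeholder of 1 in every liver.

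The 6 base ATPase genes were all higher, between 0.03 (Psmc3) and 0.19 (Psmc2), with a median of 0.09. Without saline replicate 43 or 49 or LNA29 replicate 54 it was 4 of 6, with medians of 0.02 to 0.03. The other base genes are the scaffolds Psmd1 and Psmd2 and the ubiquitin receptor Psmd4. They were higher by 0.01, 0.14 and 0.23 respectively, and 1 of the 3 was lower with array weights or without saline replicate 43, 45 or 49 or LNA29 replicate 48 or 54. Psmd4 ranged from 4550 to 9842 in saline livers and from 6550 to 9945 in LNA29 livers. Its saline values split into 4550 and 4984, in replicates 49 and 43, and 4 values of 8127 or more, so that the difference came with a standard error of 0.20 (limma adjusted p = 0.848). It was 0.09 without saline 49, 0.11 without saline 43 and 0.06 with array weights.

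The lid genes were split, 4 higher and 4 lower, with a median of 0.01 (6 of 8 higher with TMM scaling). Psmd14, the deubiquitinase of the lid, had values between 840 and 1196 (median 975) in saline livers and between 610 and 1082 (median 809) in LNA29 livers. LNA29 replicates 46, 48 and 52 lay under all saline livers, and the other 3 lay among them. The log2 difference was -0.30 (standard error 0.18, limma adjusted p = 0.733, exact permutation p = 0.0931). Psmd12, a structural lid subunit, differed by -0.19 (limma adjusted p = 0.874), and its lowest value was 849 in LNA29 replicate 48, where the other 11 livers had 1434 or more. Without that liver it differed by -0.02, and by -0.08 with edgeR or DESeq2. Psmd11, another structural lid subunit, showed -0.01 (95% interval -0.35 to 0.33), and its sign changed with the scaling.

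Of the 3 chaperones that help to assemble the base, Psmd9 showed the widest difference of the 39 genes. It had values between 1531 and 2735 (median 2455) in saline livers and between 2472 and 3534 (median 2838) in LNA29 livers. Saline replicates 43 and 49, at 1531 and 1590, lay apart from the other 4 saline livers, which had 2212 or more, and 3 of these reached into the LNA29 range. The log2 difference was 0.40 (95% interval 0.03 to 0.76, limma p = 0.0366, adjusted p = 0.589), which is a fold of 1.32, and the exact permutation p was 0.0519. Leaving out 1 liver at a time gave between 0.29 and 0.46, with an unadjusted limma p of 0.05 or more without saline replicate 43, 49 or 51, LNA29 replicate 46 or 50, or LNA29 replicate 54. Psmd5 and Psmd10 differed by 0.01 and -0.03.

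The activator genes were all lower in LNA29 livers, 4 of 4, with a median of -0.18. With TMM scaling 2 of them, Psme2 and Psme3, were higher instead. Psme1, the alpha chain of PA28, had values between 2172 and 5053 (median 3075) in saline livers and between 1707 and 4189 (median 2411) in LNA29 livers. Saline replicate 47 and LNA29 replicate 48 were the highest of their groups, and the groups overlapped through most of their range. Its log2 difference was -0.30 (standard error 0.23, limma adjusted p = 0.804), or -0.17 without saline 47 and -0.19 without LNA29 46. Psme4, which encodes PA200 and holds a seed match, ranged from 635 to 1050 in saline livers and from 377 to 975 in LNA29 livers. It differed by -0.30 as well (standard error 0.23, limma adjusted p = 0.818), the opposite sign to that of Psmb7. Without LNA29 replicate 48 it was -0.12, and it was -0.18 with DESeq2 and -0.19 with edgeR. Psme3, the nuclear PA28 subunit, varied little and differed by -0.06 (95% interval -0.32 to 0.19), and Psme2, with 7 to 36 reads a liver, by -0.02 (95% interval -0.76 to 0.73).

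**Figure D2:**
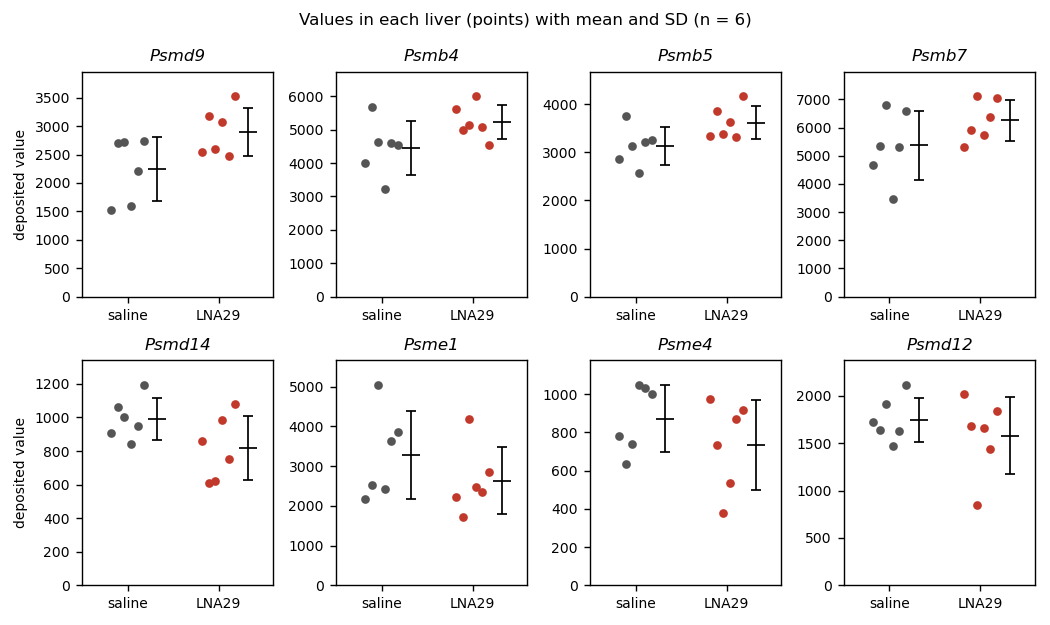
Deposited value (upper-quartile scaled reads, axes from 0) of the 4 genes with the lowest limma p in each direction (8 in all), by liver (points), with mean and SD (bars, n = 6 per group). The groups overlap in every panel, and the 2 lowest saline values of Psmd9 are 1531 and 1590.

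No gene around the proteasome had an adjusted limma p under 0.05 either. Of 37 tested genes for assembly factors, ubiquitin, its shuttles and deubiquitinases, the p97 segregase, Nfe2l1 with its partners, Psmb8, Psmb9 and 2 lid or base subunits with other symbols, 18 were higher and 19 lower, where 38.6% of all tested genes were higher. Their median log2 difference was -0.01. Nfe2l1 had values between 4971 and 8300 (median 5799) in saline livers and between 4268 and 5755 (median 5066) in LNA29 livers, and its highest value was in saline replicate 49. Its log2 difference was -0.24 (standard error 0.14, limma adjusted p = 0.745), or -0.14 without that liver. Pomp, the chaperone of 20S assembly, differed by 0.07 (limma adjusted p = 0.958). Uba1, the enzyme that activates ubiquitin, ranged from 5380 to 7123 in saline livers and from 4268 to 5434 in LNA29 livers, so that LNA29 replicate 48 alone reached into the saline range. The log2 difference was -0.28 (limma p = 0.0293, adjusted p = 0.545, exact permutation p = 0.00433). Rps27a, a ribosomal protein fused to ubiquitin, had a log2 difference of 0.58 (limma p = 0.0324, adjusted p = 0.567, exact permutation p = 0.0823). LNA29 replicate 48 stood at 8226 and every other liver at 4341 or less, and the difference was 0.39 without that liver. Reads of Rps27a may be shared with its many pseudogene copies.

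Per kilobase of transcript, subunits that are needed in equal number in the 26S complex differed widely in RNA. Over the 14 genes of the 20S ring, the saline level per kilobase of the longest transcript ran from 213 ± 24.5 for Psma3 to 4907 ± 1287 for Psmb6 (SD, n = 6), a span of 23.0-fold. With the median length of the annotated transcripts the ends changed to Psma2 (508) and Psmb4 (6829), and the span was 13.4-fold. On the longest transcript, which the other levels here use, the catalytic subunits had 3483 ± 444 (Psmb5), 4631 ± 1062 (Psmb7) and 4907 ± 1287 (Psmb6). Psmb7 and Psmb6 differed by less than their SDs, and Psmb5 lay further below. With median lengths Psmb7 was instead the lowest of these, with 2680, beside 4117 for Psmb5 and 5320 for Psmb6. On the longest transcript, Psmd4 (4398 ± 1348) and Psmd3 (4089 ± 1107), a lid scaffold, stood beside the catalytic subunits. There Psmc6 (243 ± 90.1) and Psmc2 (937 ± 216) were the lowest of the base ATPases. With median lengths that order turned, with 684 for Psmc6 and 637 for Psmc2. The base chaperones were lower still, with 80.9 ± 28.0 for Psmd5 and 175 ± 49.4 for Psmd10, apart from Psmd9 with 866 ± 219. Of the activators, Psme1 (2945 ± 996) stood among the higher 20S genes and its partner Psme2 at 298 ± 193.

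**Figure D3:**
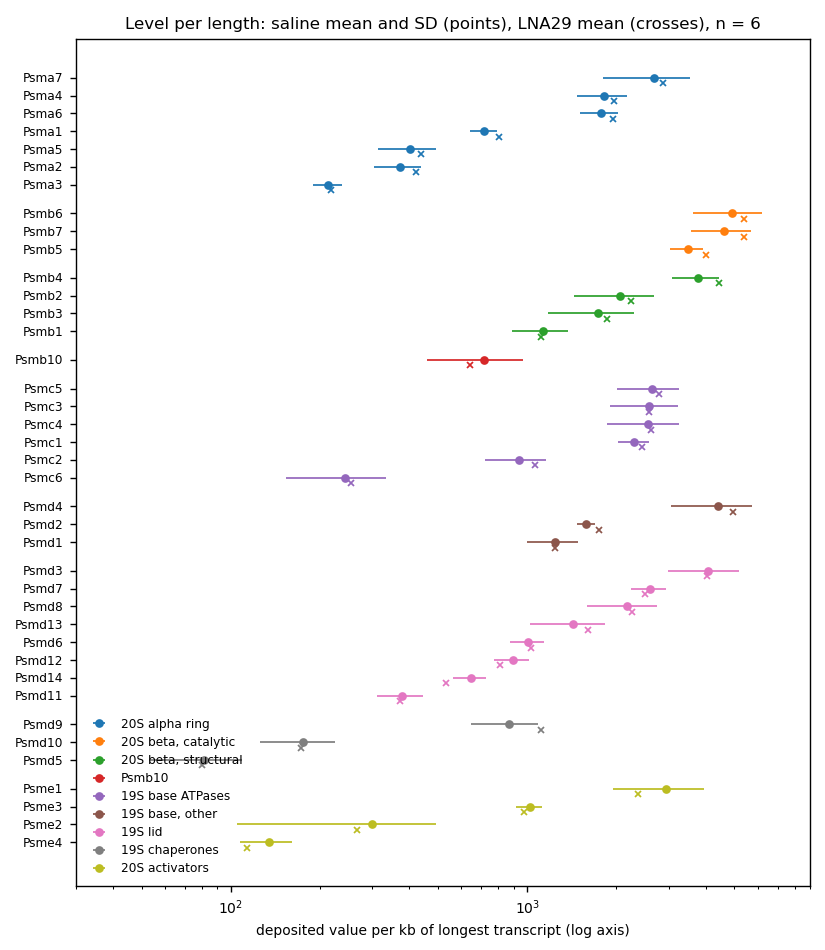
Level per kilobase of the longest protein-coding transcript (log axis) of 39 proteasome genes, as the saline mean with SD (points) and the LNA29 mean (crosses), n = 6 livers each. Psmb6 lies highest at 4907 and Psmd5 lowest at 80.9 in saline livers.

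Differences between single livers were larger than the difference between the groups. Over the 31 genes of 20S and 19S together, saline replicates 43 and 49 had low RNA, and LNA29 54 had the highest as scaled by the authors. The mean log2 deviation of the 14 genes of the 20S ring from the mean of the 12 livers was -0.53 in saline 49 and -0.26 in saline 43, and lay between -0.12 and 0.28 in the other 10. For the 9 base genes it was -0.34 and -0.35 in the same livers. For the 8 lid genes it spanned -0.26 in saline 49 to 0.25 in saline 53, with -0.13 in saline 43 and -0.20 in LNA29 48. Saline 49 also stood apart in the library as a whole. The rank correlation between transcript length and a gene's deviation in that library was 0.50 in saline 49 and 0.28 in saline 43, against between -0.30 and 0.26 in the other livers, and LNA29 44, with 0.26, had a 20S deviation of -0.12. Albumin took 35.7% of the reads of saline 49 and at least 43.6% in the others. The part of library composition in the subunit values was not tested beyond these values: without saline 49 the median log2 difference of the members was 0.02 and without saline 43 it was 0.04, instead of 0.09, and with the length trend as a covariate it was 0.08.

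**Figure D4:**
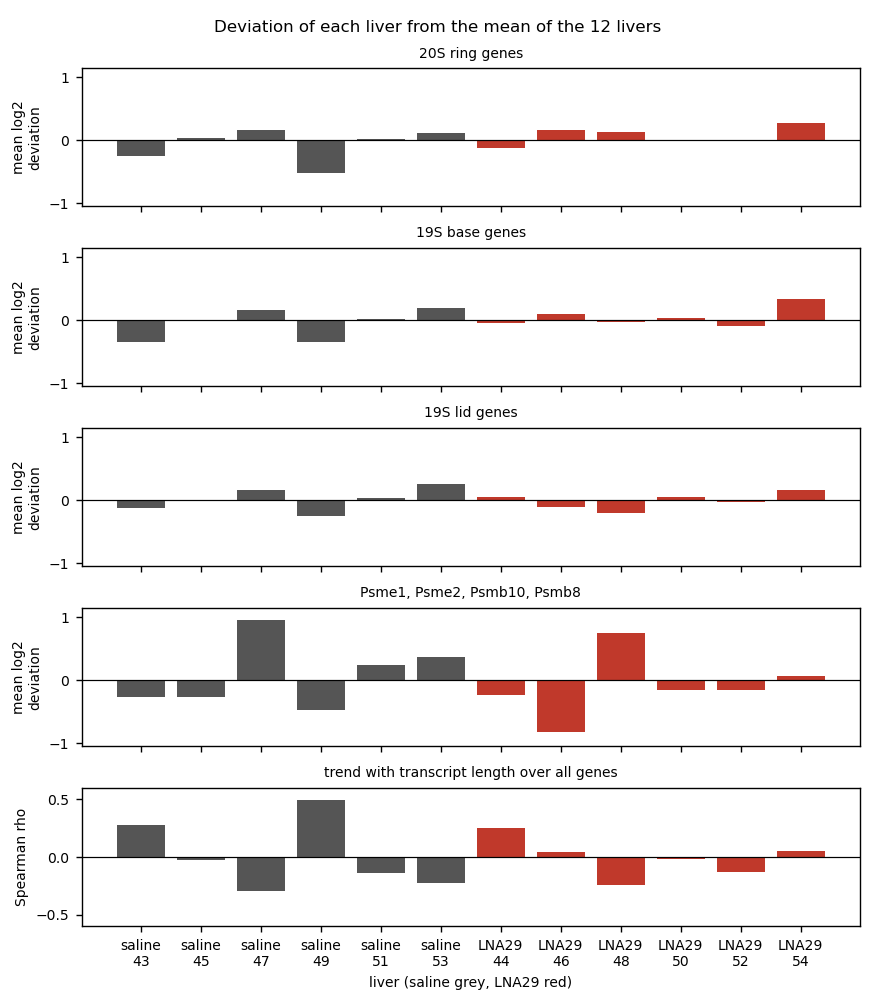
Mean log2 deviation of each liver from the mean of the 12 livers for the 14 genes of the 20S ring, 9 of the 19S base, 8 of the 19S lid and 4 interferon-inducible genes, and below them the Spearman correlation of all genes' deviations with transcript length (bars, saline grey, LNA29 red). The 20S deviation is lowest in saline 49, at -0.53, and the inducible genes are highest in saline 47 and LNA29 48.

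Subunit genes varied together from liver to liver. After the group means were subtracted, the median Pearson r over the 465 pairs of 20S and 19S genes was 0.44 over 12 livers. Over all pairs of tested genes it was 0.02, and over pairs of genes with a mean of at least 500 it was 0.03. By role, the median was 0.52 in the 20S ring, 0.62 in the base and 0.16 in the lid. The closest pairs included the ATPases Psmc3 and Psmc5 (r = 0.97), while Psmc6 and the lid genes Psmd6 and Psmd11 went against many of the others. All pairs share libraries, depth and scaling. The median over the 465 pairs was 0.35 without saline 49 and 0.38 after the length trend was subtracted, and 0.66 after the livers were brought to 1 common median. The spread between livers was smaller than that of most genes, with a median residual SD of 0.30 (log2) for the 31 subunit genes, beside 0.34 for the 4866 tested genes with a mean of at least 500. Psmd2 (0.12) and Psme3 (0.13) varied least.

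The interferon-inducible genes Psme1, Psme2 and Psmb10 formed the tightest block, joined by Psmb8. The 4 genes had a median pairwise r of 0.87, with 0.76 for the loosest pair. Once the length trend was subtracted these values were 0.75 and 0.53. With the livers brought to 1 common median they were 0.90 and 0.82. With Psmb9 added, the median in the main setting was 0.79 and the lowest r was -0.04. Psme1, Psme2 and Psmb10 had a median r of 0.33 with the 20S and 19S genes. That was -0.01 once the length trend was subtracted and 0.58 with the common median. For Psme1 and Psmb8, the pair with the highest r of the 10, Pearson's r was 0.95 (permutation p = 1e-05, adjusted 1e-04 over 10 pairs). That p is the smallest that 100000 resamples can give. Spearman's rho was 0.91 (permutation p = 0.00018, adjusted 0.00115). Without saline 47 and LNA29 48, the livers farthest out, r was 0.89, and within the saline and the LNA29 livers it was 0.95 and 0.96. For Psmb9, with 6 to 20 reads a liver, no such relation was detectable in the main setting (r with Psmb8 -0.04, rho 0.04, permutation p = 0.908 and 0.905, adjusted 0.964 and 0.905). Its r with Psme1, Psme2 and Psmb10 lay between -0.03 and 0.10 there, but changed with the setting. Once the length trend was subtracted, r lay between -0.65 and -0.53. With the livers brought to 1 common median, r lay between 0.19 and 0.32. The deviation of the 4 genes was 0.95 in saline 47, 0.75 in LNA29 48 and -0.82 in LNA29 46, where the lowest saline liver was at -0.47. Psmb10 showed it as 1474 in saline 47, 1792 in LNA29 48 and 317 in LNA29 46, and its log2 difference between the groups was -0.26 (95% interval -0.96 to 0.43, limma adjusted p = 0.908). It was -0.02 without LNA29 46, -0.52 without LNA29 48, -0.45 without saline 49, and -0.07 with edgeR or DESeq2. Psmb8 and Psmb9, outside the list, differed by -0.15 and -0.26 (limma adjusted p = 0.925 and 0.912), or by -0.02 without saline 47 for Psmb8 and -0.05 without LNA29 44 for Psmb9.

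**Figure D5:**
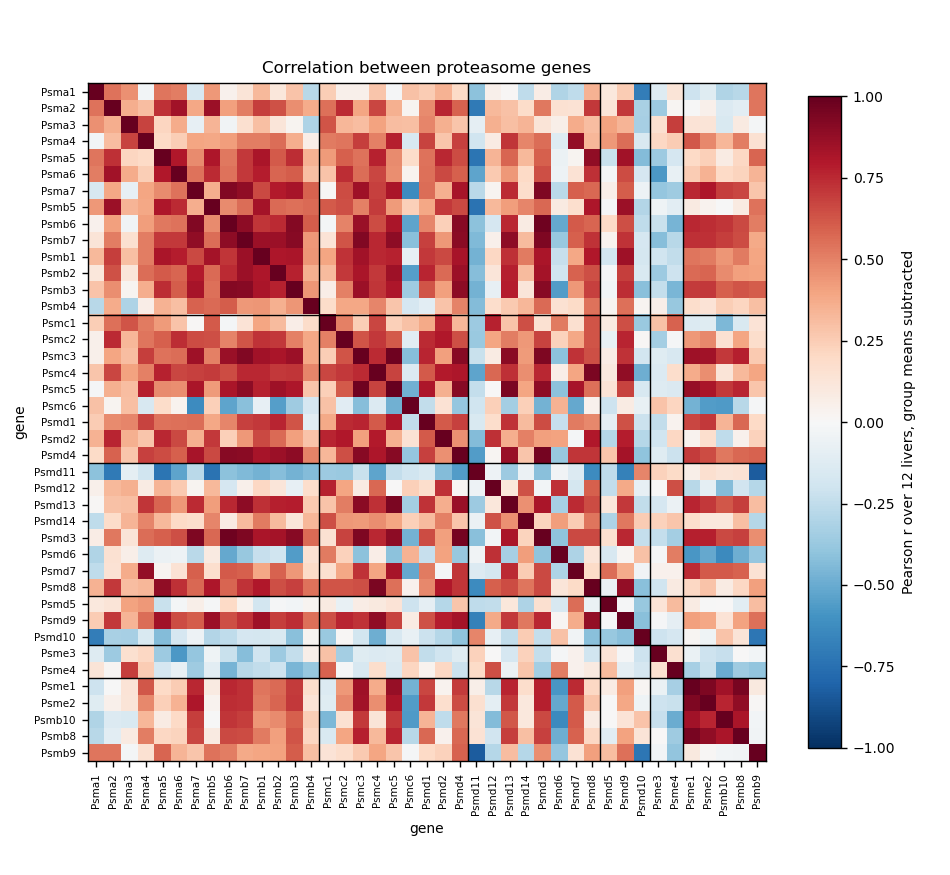
Pearson r between proteasome genes over 12 livers after the group means were subtracted (red positive, blue negative). Black lines separate the 20S ring, base, lid, chaperones, Psme3 with Psme4, and the interferon-inducible genes, whose first 4 have a median r of 0.87.

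The exchange of catalytic subunits was read as the share of the inducible form in the sum of the pair, per kilobase of the longest transcript. Psmb8 made up between 9.51% and 18.1% (median 12.1%) of Psmb8 and Psmb5 in saline livers and between 6.23% and 14.5% (median 9.92%) in LNA29 livers. Psmb10 made up between 10.7% and 16.1% (median 13.01%) of Psmb10 and Psmb7 in saline livers and between 4.54% and 18.2% (median 9.22%) in LNA29 livers. With median transcript lengths that last share was 30.05% in saline and 22.6% in LNA29 livers (medians), and at most 39.0% in any liver. The constitutive form thus held most of the RNA in every liver, and the groups overlapped for each pair. Psmb9 made up between 1.20% and 4.28% of its pair with Psmb6. A list of 25 other interferon-stimulated genes had 22 lower in LNA29 livers, 7 of them at an unadjusted limma p under 0.05 and none after adjustment, with a median of -0.54. Over all tested genes 5.97% were lower at that p and 38.6% had a positive difference. The median r of these 25 genes with Psme1, Psme2 and Psmb10 was -0.17 over 75 pairs, which ran from -0.78 to 0.94. It was -0.0019 once the length trend was subtracted and 0.04 with the livers brought to 1 common median. Of the markers of other liver cells, 3 of 11 for macrophages and leukocytes were higher and 8 lower, with 2 higher and none lower at an unadjusted limma p under 0.05. For sinusoidal endothelium 1 of 7 was higher, for bile duct 4 of 6, and for stellate cells and fibroblasts 4 of 8, and of all these Col3a1 alone had an adjusted limma p under 0.05 (log2 difference 1.48, adjusted p = 0.0438). The paper counts Col3a1 among the established targets of miR-29. A change in stellate cells therefore cannot be told apart from the block of miR-29 in that gene. The part of these cell types in the subunit values was not tested.

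Promoters were searched because subunit genes varied together. RefSeq gives 37 promoter windows (250 bases before to 50 after the start) for 34 of the genes, Psmc3ip left out. The ETS site CCGGAAG, read on both strands, was in 35.1% of these windows, against 16.7% of the windows of all tested genes and 8.86% of all 32851 windows. The CCAAT box was in 35.1% of the subunit windows, 37.3% of the windows of all tested genes and 37.4% of all windows. The core of the antioxidant response element TGACNNNGC, which Nfe2l1 and its relatives bind, was in 16.2%, 14.1% and 12.4% respectively. For the interferon-stimulated response element these shares were 10.8%, 3.09% and 3.44%. For the gamma-activated site TTCNNNGAA they were 2.70%, 6.89% and 8.30%. These are counts of letters, not of bound sites. Windows of 3 genes are printed with all matches of the 5 motifs in capitals (GRCm38.p6). Psme1 belongs to the inducible block, Psmd9 had the lowest limma p, and Psmd4 varied with the 20S genes.
Psme1: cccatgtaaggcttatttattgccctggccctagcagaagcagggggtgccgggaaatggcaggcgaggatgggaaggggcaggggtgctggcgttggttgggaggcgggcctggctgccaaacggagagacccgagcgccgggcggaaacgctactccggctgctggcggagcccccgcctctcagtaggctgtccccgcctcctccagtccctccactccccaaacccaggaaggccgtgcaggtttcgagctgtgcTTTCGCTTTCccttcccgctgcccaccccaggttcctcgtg
Psmd9: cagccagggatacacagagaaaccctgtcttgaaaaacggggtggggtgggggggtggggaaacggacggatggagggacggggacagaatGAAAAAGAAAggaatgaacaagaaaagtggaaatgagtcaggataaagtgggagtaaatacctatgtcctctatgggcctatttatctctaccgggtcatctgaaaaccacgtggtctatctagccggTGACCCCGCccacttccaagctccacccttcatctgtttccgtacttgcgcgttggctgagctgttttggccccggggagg
Psmd4: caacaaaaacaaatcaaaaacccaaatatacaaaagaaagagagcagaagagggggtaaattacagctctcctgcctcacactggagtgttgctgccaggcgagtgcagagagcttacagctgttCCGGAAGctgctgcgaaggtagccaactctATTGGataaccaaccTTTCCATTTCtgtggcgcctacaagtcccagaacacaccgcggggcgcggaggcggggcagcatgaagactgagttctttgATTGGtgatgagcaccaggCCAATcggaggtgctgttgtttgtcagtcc
The Psme1 window, chr14:55578244-55578543 on the plus strand, holds TTTCGCTTTC, a match to the interferon-stimulated response element beginning 9 bases past the start. The Psmd9 window, chr5:123227940-123228239 on the plus strand, holds an antioxidant response element core 31 bases before the start and an interferon-type match further upstream. The Psmd4 window, chr3:95042565-95042864 on the minus strand, holds an ETS site, an interferon-type match and 3 CCAAT boxes.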

How the data were processed

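Polyadenylated RNA of 12 mouse livers was sequenced as single reads. The authors mapped them with MapSplice2 and estimated reads per gene with RSEM, with mm9 named in the submitters' processing notes. Tool versions, the gene annotation and the use of strand are not given in the sources used here. The deposited signal of a gene is its reads divided by the upper quartile of the library's genes with reads, times 1000, with genes without reads set to 1. Columns with the authors' own comparison (group means, a fold change deposited as a signed score, a one-tailed p-value) were left unused, as were 2 columns without a name. In each library, 91.9% to 93.6% of values equalled a whole number of reads (within 0.02), so reads were recovered and rounded to whole numbers for count tests. No fold is given for a gene with 3 reads or fewer in every liver.

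For 6 LNA29 against 6 saline livers, log2(value + 1) was fitted with limma 3.58.1 (trended variance, R 4.3.3) in the 12486 genes whose mean reached 10, and p was adjusted by Benjamini-Hochberg. Single genes were also tested with a two-sided exact permutation test. Alternatives were pseudocounts of 0.1 and 10, no filter or a mean of at least 50, a shift to a common median, TMM factors, array weights, a covariate for each library's trend with transcript length, edgeR 4.0.16 and DESeq2 1.42.0 on the recovered reads, leaving out each liver, and, chosen after the data were seen, the length covariate with the shift. Relations between livers used log2 values less their group mean. Scripts were tested on simulated reads. The text names the 4 genes in each direction with the lowest limma p, a fixed set of subunits (Psmb6, Psmb10, Psmd4, Psmd11, Psmb8, Psmb9, Pomp), and the 3 pathway genes with the lowest p. Other genes were named after their values were seen. The members and the lists were chosen with earlier results of these data known. Lengths and 3′ UTRs are from GENCODE M21 and promoters and miRNAs from RefSeq, both GRCm38 and not the build of the authors.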

Additional observations from a re-analysis of the deposited data

Results flagged for a closer look

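Each member's values in the 6 livers of a group were searched for a lowest or highest liver that stood apart from the rest by more than Dixon's 95% critical value. Of 82 groups of values examined, 3 held such a liver, where chance gives about 1 in 20 groups. The alpha ring gene Psma6 was at 1330 in saline replicate 49, while the other 5 saline livers lay between 1798 and 2049. The alpha ring gene Psma7 was at 4245 in LNA29 replicate 48, and the other LNA29 livers lay between 2959 and 3339. The base ATPase gene Psmc2 was at 1302 in LNA29 replicate 52, and the other LNA29 livers lay between 1857 and 2219.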

How the results depend on the processing

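No member passed the adjusted threshold under any alternative named here. The number with an unadjusted p under 0.05, 1 in the main test, was 2 without a filter and with array weights, 3 with TMM factors, 4 with the length covariate and with DESeq2, 5 with the length covariate and the shift together (chosen after the data were seen), and between 0 and 2 when 1 liver was left out. It was 0 without saline replicate 43, 49 or 51 or LNA29 replicate 46 or 50. The median log2 difference of the members stayed above 0, between 0.02 (without saline 49) and 0.16 (TMM factors). Psmd11, at -0.0075, changed sign with the shift (0.038), TMM factors (0.057), array weights (0.052), the length covariate (0.00079), edgeR (0.053), DESeq2 (0.065) and the covariate with the shift (0.037), and ran from -0.091 to 0.054 when 1 liver was left out. Pomp ran from -0.047, without saline 49, to 0.20. The span of levels per kilobase in the 20S ring was 13.4-fold with median transcript lengths instead of 23.0-fold, and the median r of subunit pairs was 0.66 instead of 0.44 after the shift. The causes of these changes were not tested. No paired analysis was possible because saline livers carry odd and LNA29 livers even replicate numbers, so that no number is shared. Genes with few reads, such as Psme2 and Psmd10, are limited by depth.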
